A study of Mus musculus with 6 samples.

Results

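Calcium sensors and buffers of neurons were examined as a group of 10 genes, found by symbol: the neuronal calcium sensor genes Ncs1, Hpca, Hpcal1, Hpcal4, Ncald and Vsnl1, the calcium buffer genes Calb1, Calb2 and Pvalb, and Pcp4, which encodes a small calmodulin-binding protein. The arrays held all 10 of them among 18193 genes with a single symbol, through 19 probe sets, 14 on chip A and 5 on chip B. A probe set is a group of short probes read as 1 signal for a transcript. They were selected on signals of these same arrays, since earlier results, with Pcp4 and Calb1 far lower in OSNs than in brain, were known. Their ratios are therefore given as a description.

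The 3 populations compared were mature olfactory sensory neurons (OSNs), the epithelium that remained without them (residual epithelium), and brain without its olfactory bulbs. All came from mice carrying OMP-GFP, in which GFP stands in place of the coding region of Omp, a gene of mature olfactory and vomeronasal sensory neurons. OSNs were sorted by their fluorescence, and about 500000 OSNs and about 2500000 residual cells gave the RNA. The sources used here give neither the number of animals nor their age, nor whether they carried 1 or both altered alleles. Each population was hybridised to 1 array of chip A and 1 of chip B, 6 arrays in all, so no difference has a replicate check and none has a p-value. Because these are bulk samples, fewer cells of a type and less RNA per cell cannot be told apart.

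Neuronal calcium sensors are small proteins with EF hands, the loops that bind calcium. Most carry a fatty acid at the amino end that brings them to membranes when calcium rises, where they act on kinases, cyclases, channels and receptors. Calbindin, calretinin and parvalbumin, the products of Calb1, Calb2 and Pvalb, bind calcium with EF hands too and are known mainly for limiting the size and spread of calcium rises, and they mark different classes of brain neurons. In OSNs, odorants open a calcium-permeable channel in the cilia, and calcium then both amplifies and ends the response. Hippocalcin, neurocalcin and visinin-like protein 1 have been described in the olfactory epithelium of the rat.

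The labels were first checked with marker genes. Omp had a signal of 11057 in OSNs, 249 in the residual epithelium and 201 in brain by probe set 1422200_at, while its other probe set, 1422199_at, was below the floor on all 3 arrays of its chip. All 7 mature OSN markers were higher in OSNs, by 2-fold or more, than in both other populations. Of all counted genes 12.8% were higher than in the residual epithelium and 18.5% higher than in brain. Both signals reached the chip median, the filter given below, for all 7 against the residual epithelium and for 3 against brain. The summed signal of the 4 on chip A was 48957 in OSNs, 2726 in the residual epithelium and 2185 in brain. The residual epithelium stood out for marrow and blood markers, whose summed signal on chip A was 1429 in OSNs, 74308 in the residual epithelium and 979.9 in brain. All 9 of these were at least 2-fold lower in OSNs than in the residual epithelium, beside 18.7% of all counted genes. So were 4 of 6 markers of immature OSNs and progenitors, 4 of 4 of basal cells and 4 of 6 of microvillar and brush cells. Both signals reached the chip median for 2 of 9, 4 of 6, 0 of 4 and 2 of 6 in that order. For the others the filter fixes the sign of the ratio. Markers of supporting and gland cells were lower in OSNs for 4 of 6 counted genes, but their signal in the sorted OSNs was high, with a sum on chip A of 12119 in OSNs, 28099 in the residual epithelium and 821 in brain. Cyp2g1, a cytochrome gene of supporting cells, had 3822, 2657 and 103 in the same order, and all 6 counted genes were above brain in OSNs. Both signals reached the chip median for 1 of these 6, so the sign of the other ratios follows from the filter. The part of supporting and gland cells in the signals of the calcium genes was not tested. Brain alone had high signals for its inhibitory neuron markers, with sums on chip A of 271 in OSNs, 361 in the residual epithelium and 9354 in brain, and for cerebellar markers, with 495, 329 and 10198 in the same order.

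Signals are intensities on a linear scale that had been scaled to a common level on each array. The lower quartile over a chip's 3 arrays served as a floor, 70.3 for chip A and 79.7 for chip B. Lower values were set to it before a ratio was taken, and a ratio with its lower signal at the floor is a bound, written as "at least". A gene or probe set counted where the higher of the signals compared reached the chip median, 222 for chip A and 244 for chip B, and it was called from a ratio of 2-fold. The nearest thing to an error is the SD of the log2 ratio of 100 probe sets between the chips. It was 0.25 for OSNs over residual epithelium, 0.29 for OSNs over brain and 0.34 for residual epithelium over brain. These SDs leave out a shift between the chips, a mean difference of chip A from chip B of 0.23, -0.19 and -0.42 in the same order. Probe sets of the same gene scattered more, with SDs of 0.62, 0.79 and 0.78 in the same order. Neither kind of SD stands for the spread between animals.

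**Figure D1:**
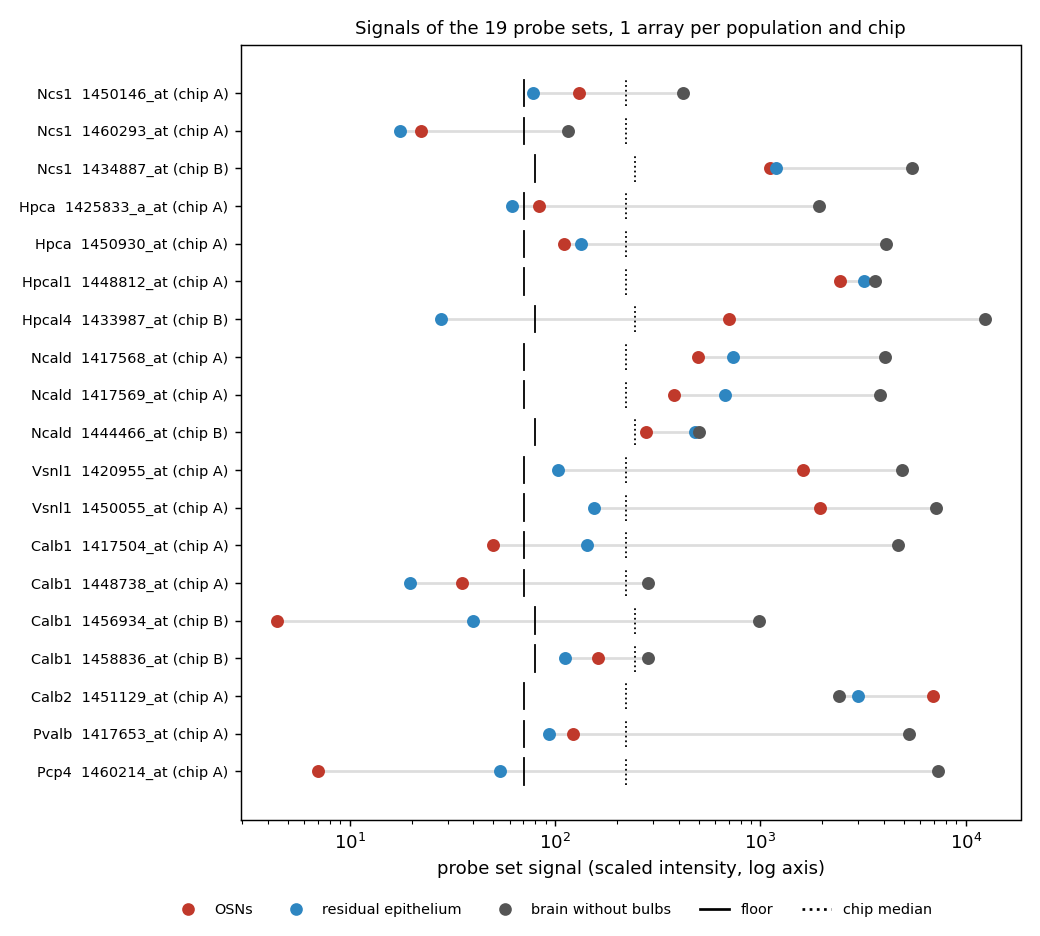
Signal of each of the 19 probe sets (log axis, scaled intensity) in OSNs, residual epithelium and brain, 1 point per array, with the chip's floor as a solid tick and its median as a dotted tick. Brain lies at the right end for every probe set except that of Calb2, where OSNs do, and the OSN points of both Vsnl1 probe sets and of Hpcal4 lie far to the right of the residual ones.

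The group did not behave alike within the epithelium. Vsnl1, Hpcal4 and Calb2 were higher in OSNs than in the residual epithelium, while Hpcal1, Ncald and Ncs1 were within 2-fold. Hpca, Calb1, Pvalb and Pcp4 had signals under the chip median in both populations and were not counted. Of the 6 counted genes 3 were therefore higher and 0 were lower, where 12.8% of 12254 counted genes were higher and 18.7% were lower. The median log2 ratio was 0.56 over the 6 genes and -0.05 over all counted genes. Of these, Vsnl1 and Hpcal4 reached the chip median in OSNs alone, which fixes the sign of their ratios.

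Against brain the group was mostly low. Of 10 counted genes 8 were lower in OSNs by 2-fold or more and 1, Calb2, was higher, where 21.1% of 12380 genes were lower and 18.5% were higher. The median log2 ratio was -3.58 over the 10 genes and 0.05 over all counted genes. The residual epithelium had 8 of 10 genes lower than brain and 0 higher, where 18.9% of 12916 genes were lower and 22.5% were higher, with a median of -4.99 against 0.12 over all counted genes. Hpca, Calb1, Pvalb and Pcp4 passed the filter through brain alone in both comparisons, and Vsnl1 and Hpcal4 did so between residual epithelium and brain, so the sign of those ratios follows from the filter and their size does not. The comparisons share arrays and are not independent of each other.

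**Figure D2:**
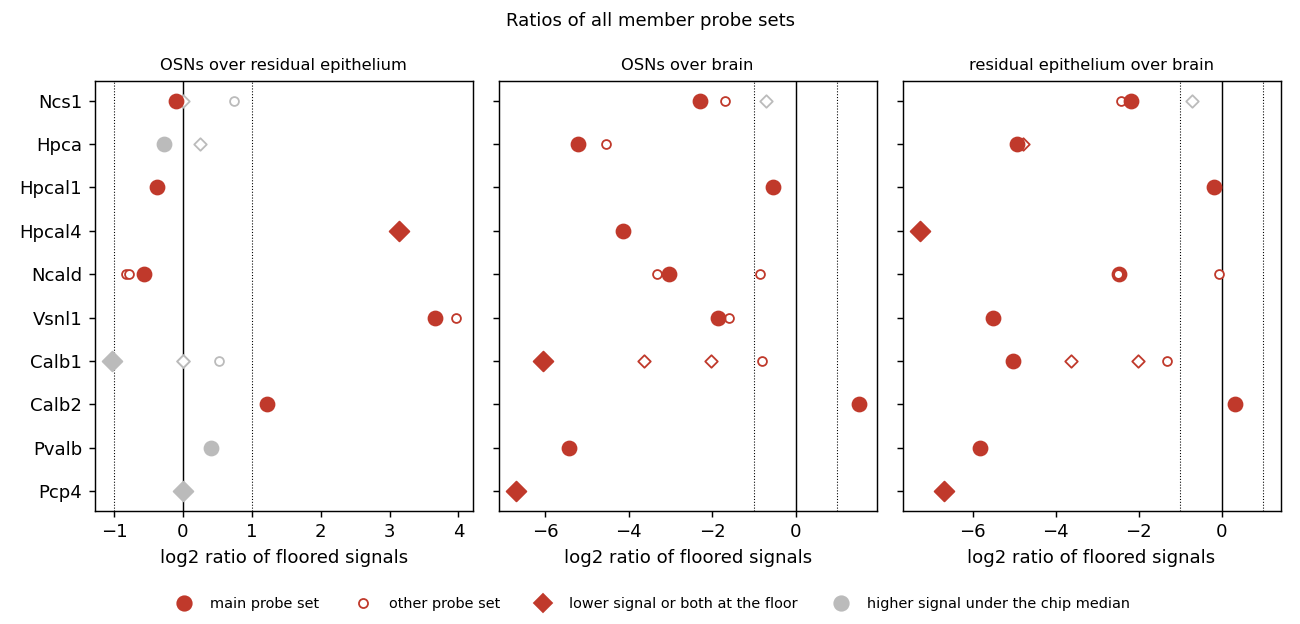
Log2 ratio of every probe set of the 10 genes, OSNs over residual epithelium on the left, OSNs over brain in the middle and residual epithelium over brain on the right. Filled symbols are the main probe set of a gene, diamonds have at least the lower signal at the floor, grey symbols were not counted, and dotted lines mark 2-fold. Only Vsnl1, Hpcal4 and Calb2 have a counted point past 2-fold on the right side of the left panel.

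Vsnl1 encodes visinin-like protein 1, a calcium sensor that moves to membranes and alters cyclic nucleotide and receptor signalling. Probe set 1450055_at had a signal of 1956 in OSNs, 155 in the residual epithelium and 7116 in brain, and 1420955_at had 1612, 104 and 4893 in the same order. Both probe sets thus put brain highest, OSNs between and residual epithelium lowest. The OSN signal was 12.6-fold higher than that of residual epithelium by 1450055_at and 15.6-fold by 1420955_at, log2 ratios of 3.66 and 3.96. It was 3.64-fold and 3.04-fold lower than in brain. The residual signal was 7.91% of that in OSNs by 1450055_at, and under the chip median by both probe sets. The summed mature OSN markers had a residual signal of 5.57% of theirs on chip A and 2.16% on chip B. Which cells gave the residual Vsnl1 signal was not tested.

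Hpcal4 encodes another member of the visinin-like branch, less studied than the others. Its only probe set, 1433987_at, had a signal of 704 in OSNs, 27.8 in the residual epithelium and 12407 in brain. The residual value lay below the floor, so OSNs were at least 8.83-fold higher than the residual epithelium, and residual epithelium was at least 156-fold lower than brain. OSNs were 17.6-fold lower than brain. Both bounds depend on the floor: with the floor at percentile 40 the log2 ratio was 2.06 for OSNs over residual epithelium, against 3.14 with the floor used here, and -6.20 for residual epithelium over brain, against -7.28.

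The promoters of Vsnl1 and Hpcal4 are shown because these sensor genes shared the order brain, OSNs, residual epithelium with a wide gap at each step, and that of Pcp4 because it was below the floor in both nasal populations and high in brain. The sequences are RefSeq's for GRCm38.p6, 250 bases before to 50 after the annotated start, 5′ to 3′ on the strand of the gene, and capitals mark the GC box GGGCGG on either strand. Vsnl1 has 2 annotated starts, at chr12:11436529-11436828 (first) and chr12:11435602-11435901 (second), both on the minus strand. Hpcal4 lies at chr4:123183254-123183553 and Pcp4 at chr16:96467356-96467655, both on the plus strand.
Hpcal4: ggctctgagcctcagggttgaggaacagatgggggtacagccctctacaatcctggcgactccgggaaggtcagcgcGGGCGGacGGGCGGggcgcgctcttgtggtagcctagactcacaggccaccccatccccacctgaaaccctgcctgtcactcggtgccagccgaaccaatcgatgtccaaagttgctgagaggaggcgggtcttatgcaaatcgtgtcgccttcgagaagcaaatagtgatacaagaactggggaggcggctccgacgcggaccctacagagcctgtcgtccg
Vsnl1, first start: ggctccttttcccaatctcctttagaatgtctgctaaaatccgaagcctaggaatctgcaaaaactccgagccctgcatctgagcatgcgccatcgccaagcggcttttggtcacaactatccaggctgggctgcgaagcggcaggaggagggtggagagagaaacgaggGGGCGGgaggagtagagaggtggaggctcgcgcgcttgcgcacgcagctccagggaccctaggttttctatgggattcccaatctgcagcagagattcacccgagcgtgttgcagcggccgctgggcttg
Vsnl1, second start: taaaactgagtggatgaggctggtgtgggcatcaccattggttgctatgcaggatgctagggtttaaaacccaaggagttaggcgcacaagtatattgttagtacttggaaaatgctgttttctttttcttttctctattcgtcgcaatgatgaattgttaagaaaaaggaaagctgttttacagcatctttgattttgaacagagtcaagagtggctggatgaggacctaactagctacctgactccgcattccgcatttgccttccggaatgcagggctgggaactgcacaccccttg
Pcp4: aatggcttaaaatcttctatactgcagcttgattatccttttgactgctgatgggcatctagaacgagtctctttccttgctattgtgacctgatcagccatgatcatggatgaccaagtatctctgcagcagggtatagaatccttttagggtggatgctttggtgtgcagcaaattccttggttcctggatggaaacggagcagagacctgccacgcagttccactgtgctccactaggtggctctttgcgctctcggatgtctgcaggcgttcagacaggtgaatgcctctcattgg
Hpcal4 had GC boxes beginning at positions -173 and -165 from the start, and the first Vsnl1 promoter had a GC box at -80, while the second Vsnl1 promoter and that of Pcp4 had none. The table held 11 promoters of 7 of the genes, with none for Ncald, Calb1 and Calb2, and 6 of the 11 held a GC box, as did 35.7% of 32851 promoters in all. None of the 11 held, on either strand, the cyclic AMP response element TGACGTCA (1.79% of all promoters), its core TGACG, which that element contains (20.8%), the homeodomain core TAATTA (5.29%) or TATAAA (13.6%). No match says only that these letters are not in these windows.

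Calb2 was the only gene of the group that was highest in OSNs. It encodes calretinin, a calcium buffer found in many sensory neurons and interneurons. Its probe set 1451129_at had a signal of 6921 in OSNs, 2968 in the residual epithelium and 2401 in brain. OSNs were 2.33-fold higher than the residual epithelium and 2.88-fold higher than brain, log2 ratios of 1.22 and 1.53, both more than the SDs between chips and between probe sets of a gene. Residual epithelium and brain differed by 0.31 on the log2 scale, less than the 0.34 SD between chips. The residual signal was 42.9% of that in OSNs, a far larger share than the 5.57% of the mature OSN markers on the same chip. Immature OSN and progenitor markers on chip A summed to 5084 in OSNs, 18178 in the residual epithelium and 6166 in brain, and their part in the residual Calb2 signal was not tested. The bulbs, whose interneurons are known for calretinin, were not in the brain sample.

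Ncs1, Ncald and Hpcal1 had signals above the chip median in all 3 populations. Ncs1, which encodes neuronal calcium sensor 1, an activator of a phosphatidylinositol 4-kinase, had a signal of 1111 in OSNs, 1191 in the residual epithelium and 5439 in brain (1434887_at). OSNs and residual epithelium differed by -0.10 on the log2 scale, less than the SD between chips, and OSNs were 4.90-fold lower than brain. Its chip A probe set 1450146_at had 131 in OSNs, 78.3 in the residual epithelium and 419.5 in brain, again with brain highest but with a log2 ratio of 0.74 for OSNs over residual epithelium at signals under the chip median. The third, 1460293_at, stayed at or under 116 on all arrays and was not counted.

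Ncald encodes neurocalcin delta, a sensor studied as a regulator of guanylyl cyclases. Its main probe set 1417568_at had a signal of 497 in OSNs, 733 in the residual epithelium and 4056 in brain, and 1417569_at had 380.3, 674 and 3814 in the same order. By these the log2 ratios of OSNs over brain were -3.03 and -3.33, or 8.16-fold lower by 1417568_at. The chip B probe set 1444466_at had 276 in OSNs, 478 in the residual epithelium and 499.8 in brain, only 1.81-fold lower in OSNs than in brain. All 3 probe sets had OSNs below residual epithelium, by log2 ratios of -0.83 to -0.56, within 2-fold.

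Hpcal1 encodes visinin-like protein 3, a close relative of hippocalcin. It varied least of the 10 genes, with a signal of 2445 in OSNs, 3178 in the residual epithelium and 3592 in brain (1448812_at). The log2 ratio was -0.38 for OSNs over residual epithelium and -0.55 for OSNs over brain, more than the SD between chips and less than that between probe sets of a gene. For residual epithelium over brain it was -0.18, under both.

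The remaining genes were high in brain alone. Hpca encodes hippocalcin, a sensor of hippocampal and other forebrain neurons, and had a signal of 110.5 in OSNs, 133 in the residual epithelium and 4090.2 in brain by 1450930_at. OSNs were 37.0-fold lower than brain by this probe set and 23.1-fold by 1425833_a_at, which had 83.6 in OSNs, 61.4 in the residual epithelium and 1930.3 in brain. Pvalb encodes parvalbumin, the fast buffer of some inhibitory neurons, and had 123 in OSNs, 93.2 in the residual epithelium and 5289 in brain (1417653_at), 43.1-fold lower in OSNs than in brain. Neither gene reached the chip median in either nasal population.

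Calb1 encodes calbindin, abundant in cerebellar Purkinje cells, and its 4 probe sets agreed in putting brain highest but not in size. Probe set 1417504_at had a signal of 49.7 in OSNs, 144 in the residual epithelium and 4689.8 in brain, so OSNs were at least 66.7-fold lower than brain. The chip B probe set 1456934_at had 4.4 in OSNs, a value under the floor in the residual epithelium and 988 in brain, so OSNs were at least 12.4-fold lower than brain. Probe set 1448738_at had 35.3 in OSNs, 19.6 in the residual epithelium and 285 in brain, at least 4.05-fold lower in OSNs than in brain. Probe set 1458836_at had 162 in OSNs, 112 in the residual epithelium and 282 in brain, 1.74-fold lower in OSNs and 2.52-fold lower in the residual epithelium than in brain. With the floor at percentile 40 the log2 ratio of 1417504_at for OSNs over brain was -5.00, against -6.06 with the floor used here.

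Pcp4, also known from Purkinje cells, encodes a protein that speeds the exchange of calcium on calmodulin. It had a signal of 7.0 in OSNs, 53.7 in the residual epithelium and 7319 in brain (1460214_at), below the floor in both nasal populations and at least 104-fold lower in each than in brain. With the floor at percentile 40 both log2 ratios were -5.64, against -6.70 with the floor used here. Markers of cerebellar neurons were low in the nasal populations as well, with all 5 at least 2-fold lower in OSNs than in brain, beside 21.1% of all genes. Among them was Pcp2 with 22.6 in OSNs, 18.2 in the residual epithelium and 3035 in brain. All 6 inhibitory neuron markers were lower too, among them Gad1 with 18.6 in OSNs, 19.2 in the residual epithelium and 3958 in brain. Both signals reached the chip median for 1 of the 5 and 1 of the 6. The other markers passed the filter through brain alone, which fixes the sign of their ratios. Their part in the brain signals of Pcp4, Calb1 and Pvalb was not tested.

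Pcp4l1, whose protein resembles that of Pcp4 in sequence, was by contrast highest in OSNs. It had a signal of 5850.5 in OSNs, 539 in the residual epithelium and 899 in brain, 10.8-fold higher in OSNs than in the residual epithelium and 6.51-fold higher than in brain. Pcp4l1 was placed in the list of calmodulin-binding proteins, but whether its protein binds calmodulin was not tested. In that list 2 of 6 counted genes were higher in OSNs than in the residual epithelium and 1 was lower, beside 12.8% and 18.7% of all genes. Both signals reached the chip median for 5 of the 6. Iqcg passed through OSNs alone, so the sign of its ratio follows from the filter. It was 6.94-fold higher, and Gap43, also among the immature OSN markers, had a log2 ratio of -0.82. Marcks was 2.83-fold lower, although its probe sets ranged from -2.54 to -0.14. Against brain 3 of 7 were higher in OSNs and 2 were lower, beside 18.5% and 21.1% of all genes. Both signals reached the chip median for 5 of the 7. Iqcg passed through OSNs alone and Nrgn through brain alone, which fixes the sign of their ratios. Iqcg was at least 9.96-fold higher, Nrgn, the neurogranin gene of forebrain neurons, at least 49.0-fold lower, and Myo5a 2.29-fold lower. The probe sets of Myo5a ranged from -1.58 to -0.13 on the log2 scale. Those of Iqgap1, among the higher genes, ranged from -0.29 to 3.15. Between residual epithelium and brain 2 of 6 were higher in the residual epithelium, Iqgap1 by 5.32-fold and Marcks by 2.73-fold, and 2 were lower, Nrgn by 18.4-fold and Myo5a by 4.32-fold, where 22.5% and 18.9% of all genes were called. The probe sets of Iqgap1 disagreed in sign in this comparison too, from -0.76 to 3.05. Both signals reached the chip median for 5 of the 6, and Nrgn again passed through brain alone.

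Other EF-hand proteins, 33 genes of which 27 were on the arrays, were divided. Within the epithelium 6 of 14 counted genes were higher in OSNs and 1 was lower (median log2 ratio 0.54), beside 12.8% and 18.7% of all genes, and both signals reached the chip median for 12 of the 14. Kcnip4, a calcium sensor of potassium channels from the same superfamily, was at least 15.2-fold higher in OSNs by its main probe set, with other probe sets down to 1.57 on the log2 scale, and Scgn, the gene of the buffer-like sensor secretagogin, was 6.92-fold higher. Efhd2 was 3.80-fold lower and Efcab1 had a log2 ratio of -0.56, with probe sets from -0.56 to 0.25. Against brain 6 of 21 were higher in OSNs and 8 were lower (median -0.20), beside 18.5% and 21.1% of all genes, and both signals reached the chip median for 11 of the 21. Cib1 was 7.04-fold and Scgn 5.54-fold higher, and Kcnip2 was at least 39.7-fold and Cabp7 at least 35.6-fold lower. The probe sets of Kcnip2 ranged from -5.31 to -2.37 on the log2 scale.

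Scgn thus resembled Calb2 in being highest in OSNs, with a signal of 1904 in OSNs, 275 in the residual epithelium and 344 in brain. Kcnip4 had 1208 in OSNs, 63.0 in the residual epithelium and 1631 in brain, the order seen for Vsnl1 and Hpcal4, with a log2 ratio of OSNs over brain of -0.43 by this probe set and down to -1.27 by others. Between residual epithelium and brain 3 of 20 counted genes were higher in the residual epithelium and 9 were lower, beside 22.5% and 18.9% of all genes. They ran from Cib1, 6.45-fold higher, and Cetn2, 2.91-fold higher, to Cabp7, at least 35.6-fold lower, and Caln1, 40.5-fold lower. The probe sets of Caln1 ranged from -5.34 to -1.91 on the log2 scale. Both signals reached the chip median for 10 of the 20. Cib1, Cabp7 and Caln1 were not among them, so the sign of these ratios follows from the filter.

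Calcium and calmodulin effectors, the enzymes and channels that these signals act on, were higher in OSNs than in the residual epithelium for 7 of 18 counted genes and lower for 1, beside 12.8% and 18.7% of all genes. Both signals reached the chip median for 13 of the 18. Camk2a, a subunit of calcium/calmodulin-dependent kinase II, was 5.31-fold higher by its main probe set, and Pde1c, a calmodulin-stimulated phosphodiesterase of olfactory cilia, 4.89-fold, with probe sets from -0.93 to 2.41 for Camk2a and from 0.55 to 5.04 for Pde1c. Dapk2 was at least 3.84-fold lower, and Camk1g had a log2 ratio of -0.60. Against brain 2 of 24 were higher in OSNs and 15 were lower, beside 18.5% and 21.1% of all genes, and both signals reached the chip median for 15 of the 24. The 2 were Pde1c, higher by 7.34-fold with probe sets from 0.51 to 5.86 on the log2 scale, and the calcineurin subunit gene Ppp3cc, by 2.82-fold. Rcan2, a calcineurin regulator, was at least 55.5-fold lower and Camk2b at least 26.6-fold lower. Residual epithelium was lower than brain for 17 of 24 and higher for 1, Dapk2, by 2.43-fold, beside 18.9% and 22.5% of all genes. Camk2b was at least 26.6-fold lower there, Rcan2 had a log2 ratio of -4.65, and Pde1c had 0.59. Both signals reached the chip median for 14 of the 24. Dapk2, Camk2b and Rcan2 were not among them, so the sign of these ratios follows from the filter.

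**Figure D3:**
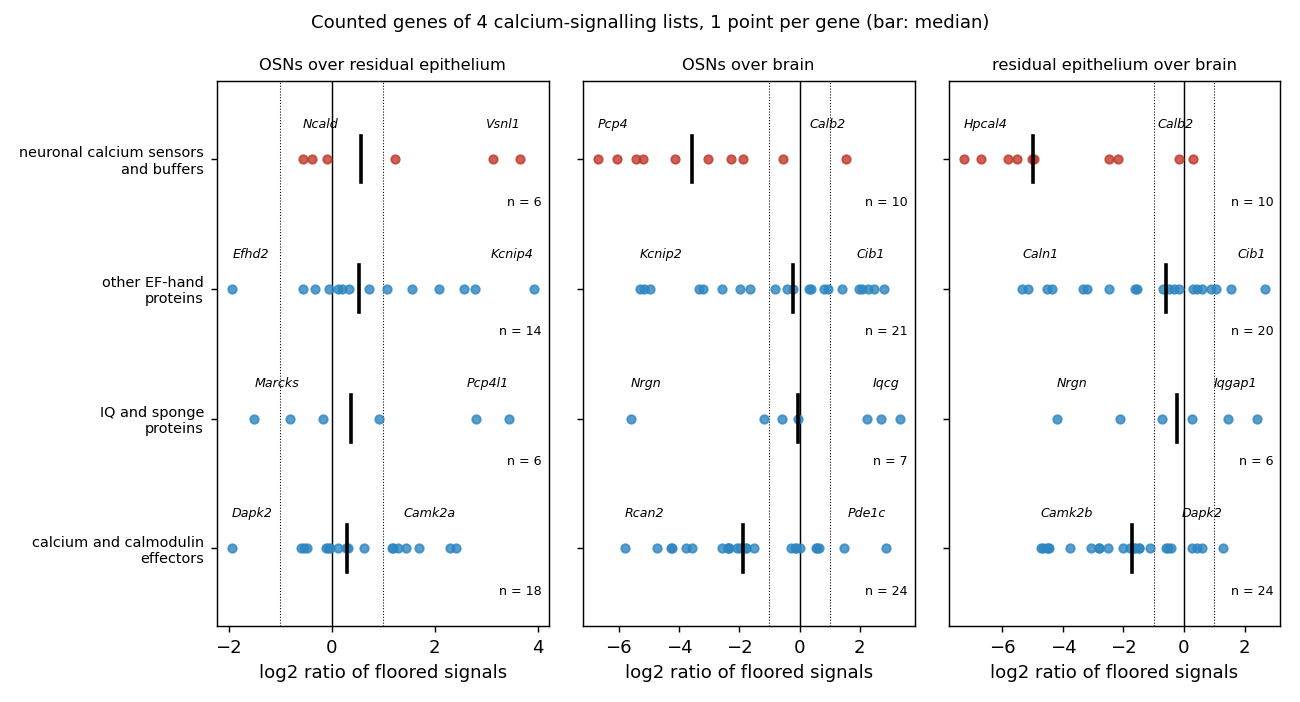
Log2 ratios of the counted genes of the group (top row) and of the lists of other EF-hand proteins, calmodulin-binding proteins and effectors, 1 point per gene, with the median as a bar and the genes at each end named. Against brain the medians are -3.58, -0.20, -0.05 and -1.89 from top to bottom, and within the epithelium all 4 medians are between 0.29 and 0.56.

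The genes whose 3 log2 signals, centred on their mean, lay nearest to those of a member were sought on the same chip. With only 3 populations such a match is a description, and it says nothing of shared function. Hpcal1 had 1802 of 8596 other genes within a distance of 0.5 log2 units and Calb2 had 557, so their patterns were common on the array. Vsnl1 had 3, namely Mt3 (distance 0.28), Ptn (0.38) and Nap1l5 (0.45). The residual signals of Mt3 and Nap1l5 lay below the floor, so their distances hold for floored values only. Mt3, a metallothionein gene of neurons and glia, had a signal of 901 in OSNs, 16.9 in the residual epithelium and 4130.0 in brain. Hpcal4 had none within 0.5 among 7010 genes, the nearest being the sodium channel gene Scn2a at 0.83. Its own residual signal lay below the floor, so these distances too hold for floored values only. Pcp4 had 2, the choroid plexus gene Ttr (0.02) and the myelin gene Mbp (0.06 by probe set 1454651_x_at), both under the floor in OSNs and residual epithelium like Pcp4 itself, so that these distances rest on the floor. The main probe set of Mbp had 168 in OSNs, 198 in the residual epithelium and 11202 in brain, above the floor on all 3 arrays. The 3 genes nearest to Calb2 were Polg2, Fbxo36 and Ngrn, at 0.01 to 0.02.

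**Figure D4:**
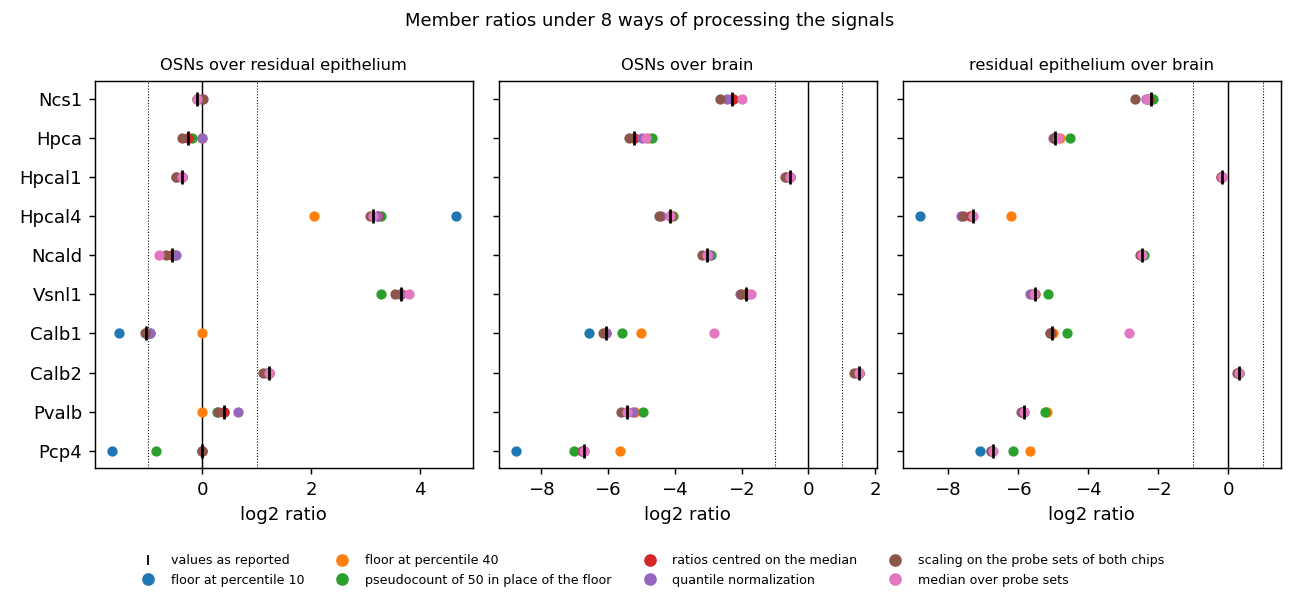
Log2 ratio of each of the 10 genes as reported (black bar) and under 7 other ways of processing the signals (points), OSNs over residual epithelium, OSNs over brain and residual epithelium over brain. Ratios with a signal at the floor, such as those of Hpcal4, Calb1 and Pcp4, move with the height of the floor, and those of Hpcal1 and Calb2 hardly move.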

How the data were processed

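The authors deposited a linear, single-colour intensity for each probe set, and the labels give total RNA from TRI reagent, labelled in 1 cycle with biotin. Per the submitters' processing notes they were made with MAS5, named for 5 of the 6 arrays and without a version. On all 6 arrays the mean after trimming 2% at each end was 500.1, so the authors had scaled each array to a common level, which means that abundant transcripts lower the other signals of an array and that amounts per cell cannot be compared. The sources used here give no detection calls or background settings. For arrays, their number limits the precision.

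Members and lists were chosen with earlier results of these data known. Probe sets were named through GEO's platform annotation where it gave a single symbol (35041 of 45265 probe sets), with symbols updated to RefSeq by Entrez identifier. The main probe set of a gene, used for its ratios, was that whose mean log2 signal had the highest percentile within its chip. Ratios were taken within a chip. The files name no genome build, and coordinates are those of the RefSeq promoter table. All member probe sets are named. Of each other calcium list, the 2 highest and 2 lowest ratios per comparison are named, and for each member the 3 nearest patterns were found (by Euclidean distance). From marker lists, Omp, Cyp2g1, Pcp2 and Gad1 are named as the check of the labels and of other cells. There is no test across samples. The computation was tested on simulated arrays. Alternatives were a pseudocount of 50, floors at percentile 10 and percentile 40, no signal filter or a filter at percentile 75, median centring, quantile normalization, scaling on probe sets of both chips, the median over probe sets, and calls from 4-fold. Python 3.11.15, numpy 2.4.6, pandas 2.3.3, scipy 1.17.1 and matplotlib 3.10.9 were used.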

Additional observations from a re-analysis of the deposited data

How the results depend on the processing

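With 1 array per population and chip, nothing here could be tested by leaving out a sample. No paired analysis was possible because no population has a second array of the same chip. None of the member ratios called at 2-fold changed sign under any alternative. The sign of those counted through 1 population alone was already set by the filter. Of 206 recomputed member ratios, 169 moved by less than the SD between chips and 37 by more, most of these through the floor, the pseudocount or the median over probe sets. The 169 include all 30 values under median centring, which shifts the ratios of a chip alike and by little. They also include genes with 1 probe set, which the median over probe sets cannot move, so the count overstates stability. For OSNs over residual epithelium, Hpcal4 ranged from 2.06 to 4.66 on the log2 scale with the floor at percentile 40 and percentile 10, Vsnl1 from 3.29 to 3.81 and Calb2 from 1.11 to 1.22. For OSNs over brain, Calb1 ranged from -6.56 to -2.83, with -2.83 as the median over its 4 probe sets, and Pcp4 from -8.75 to -5.64. With no signal filter the number of members lower in OSNs than in the residual epithelium was 1 in place of 0. That member was Calb1, at signals under the chip median in both and below the floor in OSNs. Its log2 ratio of -1.03 became 0.00 with the floor at percentile 40. The other Calb1 probe sets had floored log2 ratios of 0.00 to 0.53. With calls from 4-fold, 0 members were higher in OSNs than in brain in place of 1, since Calb2 was 2.88-fold higher. The other counts stayed within 1.5 times their reported value. Scaling on the probe sets of both chips moved the median of all genes for OSNs over brain to -0.23, against 0.05 as reported, and for residual epithelium over brain to -0.14, against 0.12. It left 1755 genes higher and 3223 lower in OSNs than in brain, where 2287 and 2606 were reported.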
